A study of Mus musculus with 78 samples.

Results

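The genes described here encode 10 hepatocyte transporters of bile acids, other organic anions and biliary phospholipid. Slco1a1, Slco1a4, Slco1b2, Slc10a1 and Slc22a7 make up the uptake side. Abcb11, Abcc2 and Abcb4 export across the canalicular membrane into bile, and Abcc3 and Abcc4 export across the basolateral membrane into blood. The genes were chosen by name, and each was read from the array's probe set annotated with exactly that symbol, taking the brightest over all 78 arrays where there was a choice. Each of the 10 had 1 such probe set, so they are 10 of the 19938 genes measured.

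Bile acids circulate between liver and gut. Hepatocytes take them from portal blood through the sodium-dependent carrier NTCP (Slc10a1) and the sodium-independent OATP family (Slco genes), and secrete them into bile through the bile salt export pump BSEP (Abcb11). The nuclear receptor FXR (Nr1h4), partly through the repressor SHP (Nr0b2), senses bile acids and is known to raise Abcb11 and to restrain uptake and synthesis. The xenobiotic receptors CAR (Nr1i3) and PXR (Nr1i2) and the oxidative stress factor NRF2 (Nfe2l2) are known activators of several Abcc genes, and basolateral MRP3 and MRP4 (Abcc3 and Abcc4) are known as overflow routes when secretion into bile is impaired.

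The study profiled livers of 78 female mice in 18 groups on Affymetrix arrays, with each mouse on its own array. Npc1 encodes the lysosomal membrane protein that moves cholesterol out of lysosomes, and its loss causes Niemann-Pick disease type C. In the age series, heterozygote crosses in the BALB/cNctr-Npc1m1N/J line gave Npc1-/- mice and Npc1+/+ littermates, fed chow and weaned at 3 weeks. Ages ran from 1 to 11 weeks in steps of 2, and each age had 4 mice per genotype. The mutation is present in every cell of the body from conception, and Npc1-/- mice were labelled pre-symptomatic at 1 and 3 weeks and post-symptomatic from 5 weeks. In the 12-week set, groups of 5 purchased Npc1+/+ BALB/cJ mice were untreated, fasted overnight, or given antisense oligonucleotide (oligo) injections for 4 weeks from 8 weeks of age. The oligo was either a control or directed against Npc1, and was combined or not with N-acetyl-cysteine (NAC), an antioxidant. Livers of the 12-week set were frozen or kept in RNAlater, and which mouse had which is not given.

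Values are deposited log2 expression levels, given as mean ± SD over the 4 or 5 mice of a group, and differences are log2 differences ± SE. A difference was called when its limma p-value, adjusted by the Benjamini-Hochberg method over all genes tested, was below 0.05. Levels below 5.54, the median of all values, were treated as not distinguishable from background. Each probe set has its own brightness, so levels are compared between groups and never between genes.

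Npc1 was lower in Npc1-/- than in Npc1+/+ mice at each age, by 1.11 to 1.72 on the log2 scale with no overlap between genotypes, and fell by 2.97 ± 0.15 under the Npc1 oligo. Where the Npc1 probe set lies relative to the Npc1m1N mutation is not given. These RNA levels check the labels and do not measure how much Npc1 function was lost in either set. Xist was at 9.52 to 11.3 in all 78 mice, and the Y-linked Eif2s3y at 2.58 to 3.03. The mean level of 13 hepatocyte markers lay between 12.44 and 12.72 in each of the 18 groups. Npc1+/+ mice 1 and 2 at 3 weeks stood apart, with a mean of 8.84 and 8.81 over 9 pancreatic markers against 5.12 and 5.03 in mice 3 and 4. Npc1-/- mouse 3 at 1 week had a mean of 9.07 over 8 skeletal muscle markers, against 5.45 to 5.62 in the other 3.

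Promoter sequence was available from RefSeq (GRCm38.p6) for 8 of the 10 genes, as 10 start sites, and 4 are shown because they belong to the uptake gene that differed most and to the members that held a match to a searched motif. The search covered the 250 bases before the start on both strands, for the FXR element IR1 (an inverted repeat of 13 bases, with up to 2 mismatches), the HNF1 motif GTTAAT, the STAT5 motif TTCNNNGAA, the AP-1 motif TGANTCA and the HNF4 motif CAAAGTC. No match overlapped another. Matches are in capitals, and each sequence reads 5′ to 3′ on the gene's own strand.
Slco1a1, chr6:141946963-141947212, minus strand: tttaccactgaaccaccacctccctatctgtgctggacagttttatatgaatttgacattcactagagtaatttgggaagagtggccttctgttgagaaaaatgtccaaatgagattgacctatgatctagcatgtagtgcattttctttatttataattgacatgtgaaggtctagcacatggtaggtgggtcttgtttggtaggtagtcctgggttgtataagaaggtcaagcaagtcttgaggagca
Slco1b2, chr6:141629268-141629517, plus strand: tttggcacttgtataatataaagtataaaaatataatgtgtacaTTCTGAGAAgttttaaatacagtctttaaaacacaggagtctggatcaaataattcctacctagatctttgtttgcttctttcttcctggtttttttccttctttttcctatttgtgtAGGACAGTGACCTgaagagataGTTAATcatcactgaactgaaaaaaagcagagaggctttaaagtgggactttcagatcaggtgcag
Slc10a1, chr12:80968706-80968955, minus strand: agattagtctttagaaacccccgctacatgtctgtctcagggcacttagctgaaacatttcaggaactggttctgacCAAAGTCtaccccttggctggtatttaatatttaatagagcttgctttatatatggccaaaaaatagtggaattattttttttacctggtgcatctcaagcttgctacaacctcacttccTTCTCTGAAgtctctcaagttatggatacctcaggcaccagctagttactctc
Abcb11, chr2:69342617-69342866, minus strand: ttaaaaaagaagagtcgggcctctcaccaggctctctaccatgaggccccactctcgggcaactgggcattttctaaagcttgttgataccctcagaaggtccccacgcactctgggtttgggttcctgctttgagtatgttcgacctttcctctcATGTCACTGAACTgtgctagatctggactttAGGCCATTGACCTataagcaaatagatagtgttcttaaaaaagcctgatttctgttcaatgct

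The Abcb11 sequence held 2 IR1 matches, ATGTCACTGAACT with 2 mismatches and AGGCCATTGACCT with 1, starting 94 and 63 bases before the transcription start. Slco1b2 held 1 IR1 match with 1 mismatch, AGGACAGTGACCT, starting 88 bases before the start, followed by GTTAAT 66 bases before it and preceded by the STAT5 match TTCTGAGAA 206 bases before it. Slc10a1 held the HNF4 motif CAAAGTC 173 bases before the start and the STAT5 match TTCTCTGAA 53 bases before it. Slco1a1, Slco1a4, Abcb4, Abcc2 and Abcc4 held none of the 5 motifs in this window. Of 32817 promoters of the same length, 0.957% held IR1, 6.44% the HNF1 motif, 7.02% the STAT5 motif, 6.75% the AP-1 motif and 3.84% the HNF4 motif. A match is a description of letters and does not show a bound site.

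Among the uptake genes, Slco1a1 (OATP1A1, a carrier of bile acids, steroid sulfates and other organic anions) moved most. In Npc1+/+ mice it was below 5.54 at 1 week (3.58 ± 0.13, n = 4) and at 3 weeks (4.30 ± 0.67), and it was high from 5 weeks on. The 4 Npc1+/+ mice had levels of 7.45, 9.12, 9.11 and 8.85 at 5 weeks and of 9.22, 9.77, 9.90 and 9.66 at 11 weeks. The 4 Npc1-/- mice had levels of 4.06, 4.93, 3.68 and 5.24 at 5 weeks and of 4.04, 3.55, 3.59 and 3.64 at 11 weeks. Thus every Npc1-/- mouse stayed below 5.54 at ages at which every Npc1+/+ littermate was above 7, and the genotypes did not overlap at 5, 7, 9 or 11 weeks. At 7 weeks the means were 3.51 ± 0.07 in Npc1-/- and 9.03 ± 0.55 in Npc1+/+ mice, and at 9 weeks 3.84 ± 0.61 and 8.71 ± 0.60.

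The limma differences in Slco1a1 were -0.10 ± 0.32 at 1 week and -0.74 ± 0.32 at 3 weeks, neither of which was called (adjusted p = 0.937 and 0.113). At the 4 later ages they were -4.15, -5.52, -4.87 and -5.93, each ± 0.32, and all were called (limma adjusted p = 1.07e-13 at 5 weeks and 7.01e-20 at 11 weeks). Since the Npc1-/- levels were below 5.54, the size is better read as a bound: counted from 5.54, Slco1a1 was at least 8.52-fold lower at 5 weeks and at least 17.1-fold lower at 11 weeks, with bounds of 11.2-fold and 9.00-fold at the ages between. In the 12-week set Slco1a1 was below 5.54 in all 30 BALB/cJ mice, from 3.35 to 4.97, and did not enter that set's tests. A fall under the Npc1 oligo could therefore not be measured. The 11-week Npc1+/+ mice and the untreated 12-week mice (3.81 ± 0.19, n = 5) differ in line, source, age and set, which cannot be told apart.

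Slc22a7 (OAT2, an organic anion transporter of the basolateral membrane) was lower in Npc1-/- liver at each of the 6 ages, from the first week of life. At 1 week the 4 Npc1+/+ mice had 9.66, 10.17, 10.06 and 9.63 and the 4 Npc1-/- mice 8.81, 8.72, 8.50 and 8.58. At 7 weeks they had 9.15, 9.09, 9.67 and 9.41 against 6.78, 6.60, 7.05 and 6.93, and at 11 weeks 9.29, 9.87, 9.40 and 9.70 against 5.46, 5.20, 5.58 and 5.36. At 3 weeks the Npc1+/+ mice spanned 10.21 to 10.48 and the Npc1-/- mice 8.84 to 9.72, at 5 weeks 9.27 to 10.06 and 8.05 to 8.77, and at 9 weeks 8.51 to 9.34 and 6.14 to 6.47. No Npc1-/- mouse overlapped with the Npc1+/+ mice of its age at any of the 6 ages. The level in Npc1+/+ mice was between 9.10 and 10.31 on average, whereas in Npc1-/- mice the mean went from 9.34 ± 0.38 at 3 weeks to 5.40 ± 0.16 at 11 weeks, just below 5.54.

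The difference in Slc22a7 was -1.23, -0.97 and -1.21 at 1, 3 and 5 weeks, each ± 0.18. At 7, 9 and 11 weeks it was -2.49, -2.83 and -4.16 with the same SE. All 6 were called (limma adjusted p = 6.49e-06 at 1 week and 2.23e-23 at 11 weeks), and the moderated F test of whether the difference varied with age was called as well (adjusted p = 1.97e-14). In folds, Slc22a7 was 2.34-fold lower at 1 week, 5.61-fold lower at 7 weeks and, counted from 5.54, at least 16.3-fold lower at 11 weeks.

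**Figure D1:**
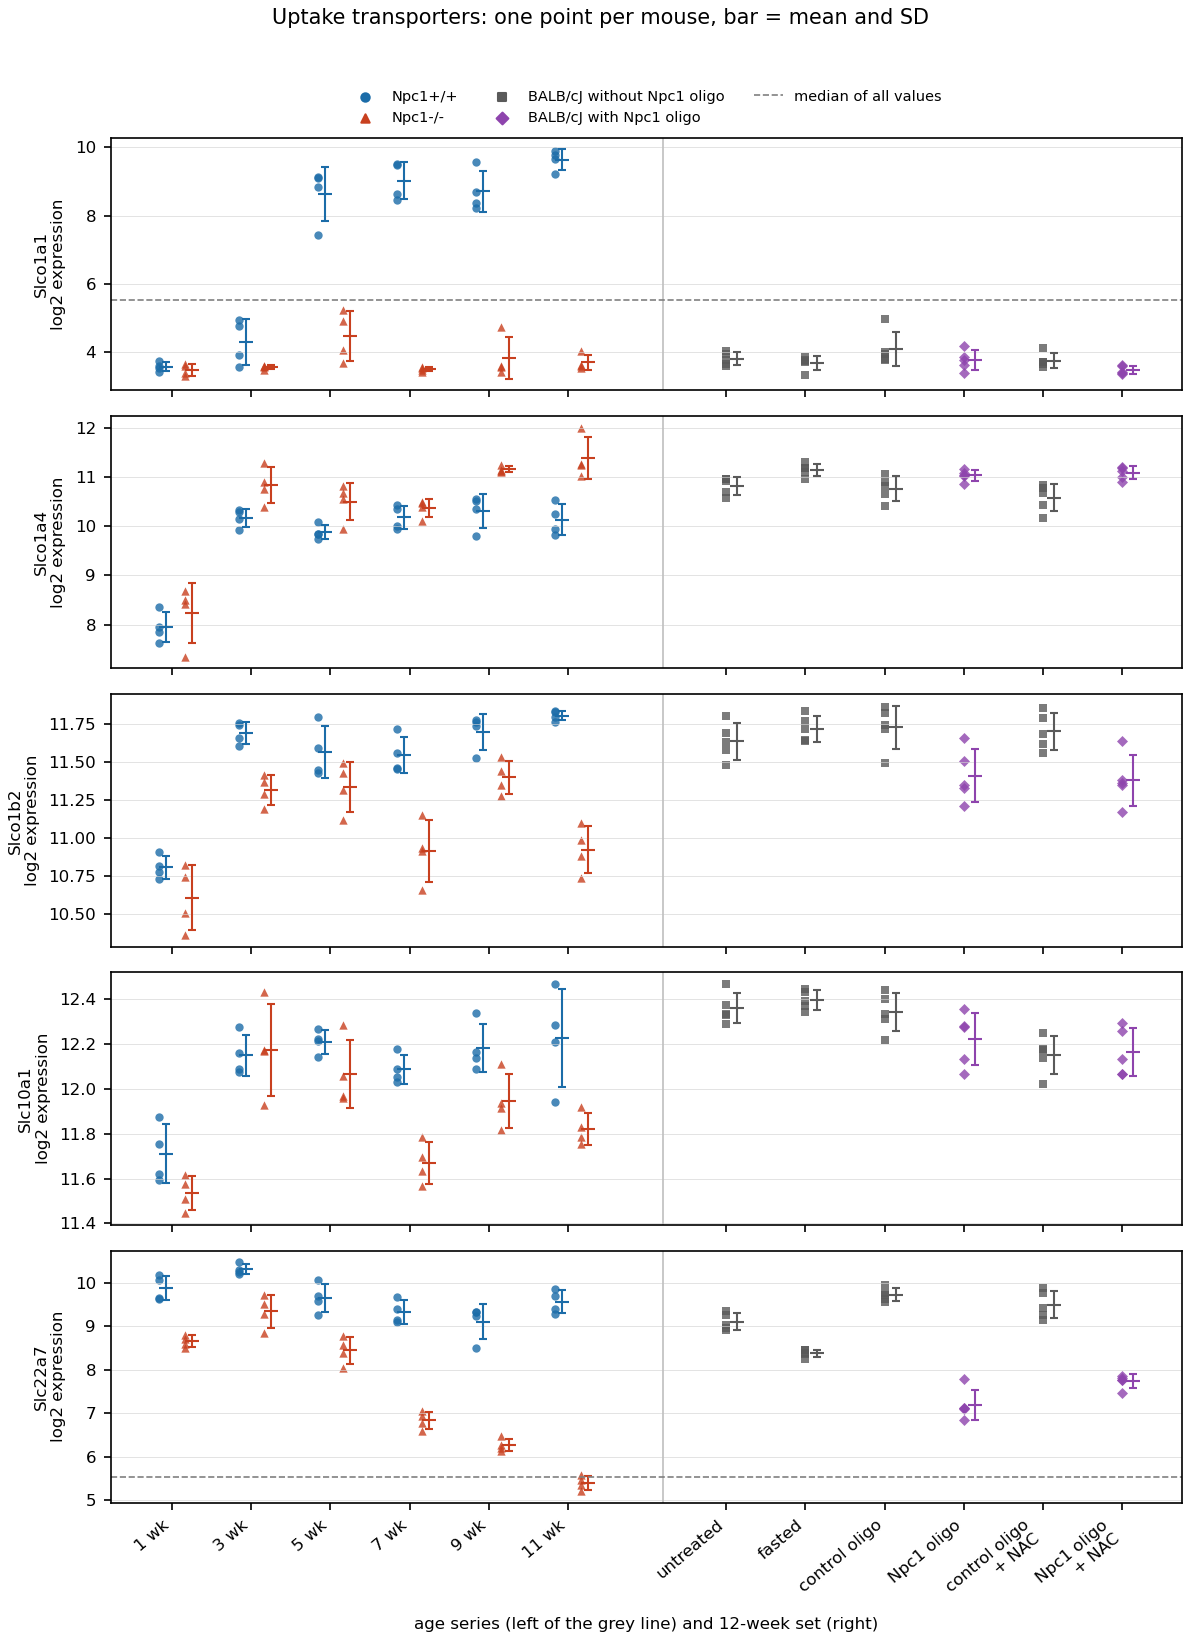
Log2 expression of the 5 uptake genes (y axes) in the 18 groups (x axis), 1 point per mouse with mean and SD beside it, and the median of all values as a dashed line. Slco1a1 was above the dashed line only in Npc1+/+ mice from 5 to 11 weeks, and Slc22a7 in Npc1-/- mice went down to 5.40 at 11 weeks.

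Slco1b2 (OATP1B2, the main liver-specific OATP of the mouse) fell by a smaller amount. At 11 weeks the Npc1+/+ mice had 11.83, 11.84, 11.77 and 11.79 and the Npc1-/- mice 11.10, 10.88, 10.98 and 10.74, with no overlap. The genotypes were also apart at 3 and 7 weeks, and at 7 weeks they had 11.46, 11.45, 11.56 and 11.71 against 10.93, 11.15, 10.66 and 10.91. The difference was -0.88 ± 0.099 (limma adjusted p = 5.16e-10). It was also called at 3, 7 and 9 weeks, at -0.37, -0.63 and -0.30 (adjusted p = 0.00628, 2.04e-06 and 0.0158), although the 3-week call was lost after quantile normalization (-0.22, adjusted p = 0.0748) and the 9-week call without Npc1-/- mouse 3 (-0.26, adjusted p = 0.0621). It was not called at 1 week (-0.20, adjusted p = 0.281) or 5 weeks (-0.23, adjusted p = 0.136).

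Slc10a1 (NTCP) was the uptake gene with the narrowest range, 0.86 between its highest and lowest group mean. It was lower in Npc1-/- mice from 7 weeks on: 11.69, 11.79, 11.63 and 11.57 against 12.05, 12.03, 12.18 and 12.09 at 7 weeks, which did not overlap. At 11 weeks the Npc1-/- mice had 11.92, 11.78, 11.76 and 11.83 and the Npc1+/+ mice 12.47, 12.29, 11.94 and 12.21, again apart. The differences at 7, 9 and 11 weeks were -0.42, -0.24 and -0.40, each ± 0.092 (limma adjusted p = 0.00045, 0.0414 and 0.000374). At 1, 3 and 5 weeks they were -0.18, 0.024 and -0.14 and were not called. The 9-week call was lost in 10 of the 19 alternative settings tried for it, among them leaving out Npc1-/- mouse 1, 3 or 4 or Npc1+/+ mouse 2, 3 or 4, with adjusted p from 0.00483 to 0.146 and values from -0.31 to -0.19 over all 19.

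Slco1a4 (OATP1A4), which lies next to Slco1a1 in a cluster of Slco genes on mouse chromosome 6, went the other way. At 11 weeks the Npc1-/- mice had 11.27, 11.02, 11.24 and 12.01 and the Npc1+/+ mice 10.53, 10.25, 9.95 and 9.82. At 9 weeks they had 11.15, 11.25, 11.12 and 11.11 against 10.52, 10.55, 10.36 and 9.80. The Npc1-/- mice were all higher at 3, 9 and 11 weeks, and the genotypes overlapped at 1, 5 and 7 weeks. The difference was 0.67 ± 0.22 at 3 weeks, 0.85 ± 0.22 at 9 weeks and 1.25 ± 0.22 at 11 weeks (limma adjusted p = 0.0293, 0.0019 and 7.38e-06), a 2.37-fold higher level at 11 weeks. At 1, 5 and 7 weeks it was 0.29, 0.62 and 0.19 (adjusted p = 0.545, 0.051 and 0.594). The 3-week call was lost without Npc1-/- mouse 1, 3 or 4 or Npc1+/+ mouse 3 or 4 (adjusted p up to 0.132). In that cluster RefSeq (GRCm38.p6) lists Slco1c1, Slco1b2, Gm5724, Slco1a4, Slco1a1, Gm6614, Slco1a6 and Slco1a5 in this order. Slco1a5 and Slco1a6 did not pass the filter on low values.

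On the canalicular side Abcb11 (BSEP), the pump that drives bile acid-dependent bile flow, was lower in Npc1-/- liver. At 3 weeks the Npc1+/+ mice had 12.03, 11.92, 11.88 and 11.81 and the Npc1-/- mice 11.13, 11.27, 11.27 and 11.31, with no overlap. At 11 weeks they had 11.84, 12.01, 11.20 and 12.04 against 10.47, 10.34, 10.21 and 11.22, where Npc1-/- mouse 4 lay just above Npc1+/+ mouse 3. At 5 weeks the genotypes overlapped fully, with means of 11.67 ± 0.18 and 11.76 ± 0.29 in Npc1+/+ and Npc1-/- mice. The differences at 3, 7, 9 and 11 weeks were -0.67, -0.60, -0.64 and -1.22, each ± 0.16, and were called (limma adjusted p = 0.00275, 0.00376, 0.00178 and 2.96e-08). Those at 1 and 5 weeks, -0.23 and 0.097, were not, although each Npc1-/- mouse was below each Npc1+/+ mouse at 1 week.

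Abcc2 (MRP2), which carries conjugated bilirubin and glutathione conjugates into bile, differed little. Its differences went from -0.064 ± 0.11 at 1 week to 0.27 ± 0.11 at 11 weeks, where it was called (limma adjusted p = 0.0462), and the genotypes overlapped at each age. At 11 weeks the Npc1-/- mice had 11.51, 11.40, 11.48 and 11.23 and the Npc1+/+ mice 11.17, 11.18, 10.92 and 11.27. That call was lost in 10 alternative settings, among them centring of each array on its median (0.18, adjusted p = 0.157) and leaving out any 1 of mice 1 to 3 of either genotype (0.20 to 0.29, adjusted p up to 0.189). Abcb4 (MDR2), the floppase that brings phosphatidylcholine into bile, had differences of 0.11 to 0.31, of which 9 weeks was called (0.31 ± 0.10, limma adjusted p = 0.0179), and the Npc1-/- mice, at 11.25, 10.93, 10.97 and 11.03, were all above the Npc1+/+ mice, at 10.85, 10.75, 10.57 and 10.77. The 9-week call was lost without Npc1-/- mouse 1 (0.24, adjusted p = 0.0989) or Npc1+/+ mouse 3 (0.25, adjusted p = 0.0808) and with centring on array medians (0.24, adjusted p = 0.0687). Averaged over the 6 ages with equal weight, it was higher by 0.20 ± 0.042 (limma adjusted p = 9.34e-05).

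On the basolateral export side Abcc4 (MRP4), which co-transports bile acids with glutathione, was the export gene that differed most. The Npc1+/+ mice had 6.25, 6.10, 6.24 and 6.26 at 5 weeks and 6.61, 6.17, 6.00 and 6.24 at 11 weeks. The Npc1-/- mice had 7.31, 7.22, 7.07 and 6.61 at 5 weeks and 8.14, 8.52, 8.84 and 8.03 at 11 weeks. At 7 weeks the groups were at 6.14, 6.10, 6.14 and 6.24 against 7.74, 7.73, 7.38 and 7.03. At 1 week and from 5 weeks on each Npc1-/- mouse was above each Npc1+/+ mouse of its age, and at 3 weeks the genotypes overlapped. The difference was 0.16 ± 0.16 at 1 week and 0.20 ± 0.16 at 3 weeks, not called. At the later ages it was 0.84, 1.32, 1.37 and 2.12, each ± 0.16, all called (limma adjusted p = 0.000126 at 5 weeks and 3.59e-15 at 11 weeks). At 11 weeks Abcc4 was 4.36-fold higher.

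Abcc3 (MRP3), which exports glucuronides and bile acids, changed sign with age. At 3 weeks the Npc1-/- mice (9.62, 8.77, 9.16 and 9.37) were all below the Npc1+/+ mice (9.83, 9.66, 9.67 and 9.63), with a difference of -0.47 ± 0.11 (limma adjusted p = 0.00192, or 0.0518 in a fit of only the groups compared). At 11 weeks they (10.94, 10.86, 11.12 and 10.77) were all above (10.57, 10.43, 10.47 and 10.60), with a difference of 0.40 ± 0.11 (adjusted p = 0.00248). The difference at 9 weeks was 0.28 ± 0.11 (adjusted p = 0.0411), a call lost in 10 of 19 alternative settings, among them centring of each array on its median (0.21, adjusted p = 0.0929) and leaving out any 1 Npc1-/- mouse or Npc1+/+ mouse 1, 3 or 4 (adjusted p up to 0.0982). The mean over the 6 ages was 0.057 ± 0.045 and not called (adjusted p = 0.293), and the variation with age was called (limma F test, adjusted p = 0.000122).

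**Figure D2:**
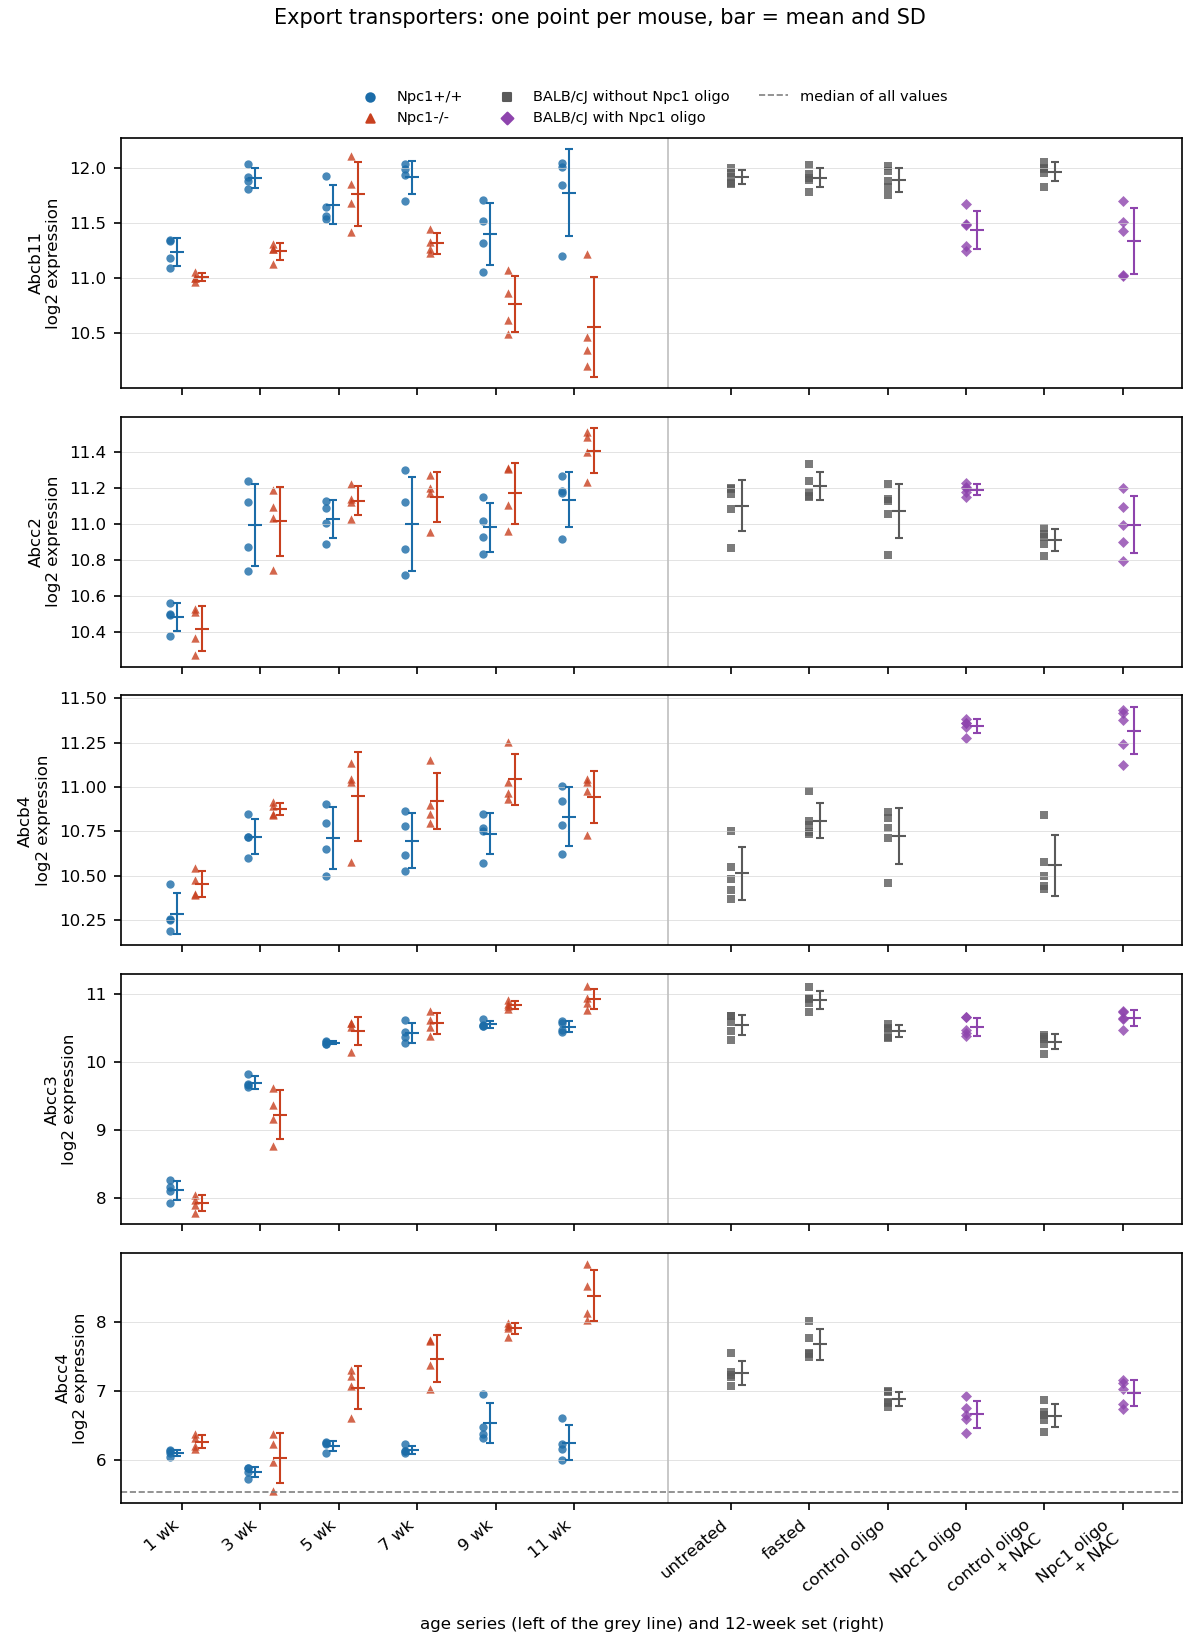
Log2 expression of the 5 export genes (y axes) in the 18 groups (x axis), drawn as for the uptake genes. Abcc4 separates the genotypes narrowly at 1 week and again from 5 weeks on, and reached 8.38 in Npc1-/- mice at 11 weeks. Abcb4 was highest in the Npc1 oligo groups, at 11.34 and 11.32.

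More of the 10 genes were called at 9 and 11 weeks than at 1 week, as were more of all genes tested. At 1 week 1 gene was called, Slc22a7, lower in Npc1-/- liver, against 2.91% of all tested genes called higher and 2.78% lower. At 3 weeks 1 was higher and 4 were lower (8.9% and 6.84% of all genes), and at 5 weeks 1 and 2 (9.69% and 2.88%), where leaving out Npc1-/- mouse 3 gave 5 calls in place of 3. At 7 weeks 1 was higher and 5 were lower (14.3% and 11.0%), or 4 and 5 after quantile normalization. At 9 weeks 4 were higher and 5 lower (17.6% and 15.5%), or 2 and 5 with each array centred on its median, and the first counts were found at 11 weeks (18.8% and 20.5%). For the mean over the 6 ages 4 were higher and 5 lower (26.0% and 26.6%), of which Abcc2 (0.11) was lost in 20 of 60 alternative settings. The difference varied with age for 7 of 10 (27.7% of all genes): Slco1a1, Slco1b2, Slc10a1, Slc22a7, Abcb11, Abcc3 and Abcc4. The Slc10a1 variation was lost in 34 of 60 alternative settings (adjusted p up to 0.106). At 11 weeks the median difference over the 10 genes was -0.15, beside -0.017 over all 12638 genes tested. At 1, 3, 5, 7 and 9 weeks it was -0.14, -0.18, 0.098, -0.14 and -0.023, with the median over all genes between -0.0089 and 0.012, and for the mean over the ages it was -0.084 beside -0.0090. Members went both ways at 3, 5, 7, 9 and 11 weeks.

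At 11 weeks 4 of 5 uptake genes were called lower and 1 higher (20.5% and 18.8% of all genes), with a median of -0.88. At 7 weeks the uptake count was 4 lower and 0 higher (11.0% and 14.3% of all genes), with a median of -0.63. At 5 weeks it was 2 lower and 0 higher (2.88% and 9.69% of all genes), with a median of -0.23. Both basolateral exporters were called higher at 9 and 11 weeks (medians 0.83 and 1.26), against 17.6% and 18.8% of all genes. Of the 3 canalicular genes 1 was higher and 1 lower at 11 weeks. The median over all genes lay between -0.017 and 0.012 at 5 to 11 weeks. Between uptake genes the range of the genotype difference over the ages was from 0.44 for Slc10a1 to 5.84 for Slco1a1. The Slco1a1 value rests on levels below 5.54 and is not an exact size.

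The 3-week counts changed when the Npc1+/+ mice with pancreatic signal were left out, which leaves 2 Npc1+/+ mice at that age. A smaller group by itself widens the SE, and this and the pancreatic signal cannot be told apart in the lost calls. Without mice 1 and 2 the calls went from 5 to 2, Slc22a7 (-0.89, limma adjusted p = 0.00656) and Abcc3 (-0.42, adjusted p = 0.0453). The differences of Slco1a4 (0.80), Slco1b2 (-0.36) and Abcb11 (-0.60) kept their direction with adjusted p of 0.0589, 0.0594 and 0.0553. In Slco1a1, the same mice 1 and 2 had 4.78 and 4.95 against 3.92 and 3.57 in mice 3 and 4. The Npc1-/- pup with muscle signal at 1 week had the lowest Slco1a4 of all 78 mice, 7.34. The part of these admixtures in the differences was not tested beyond leaving the mice out.

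**Figure D3:**
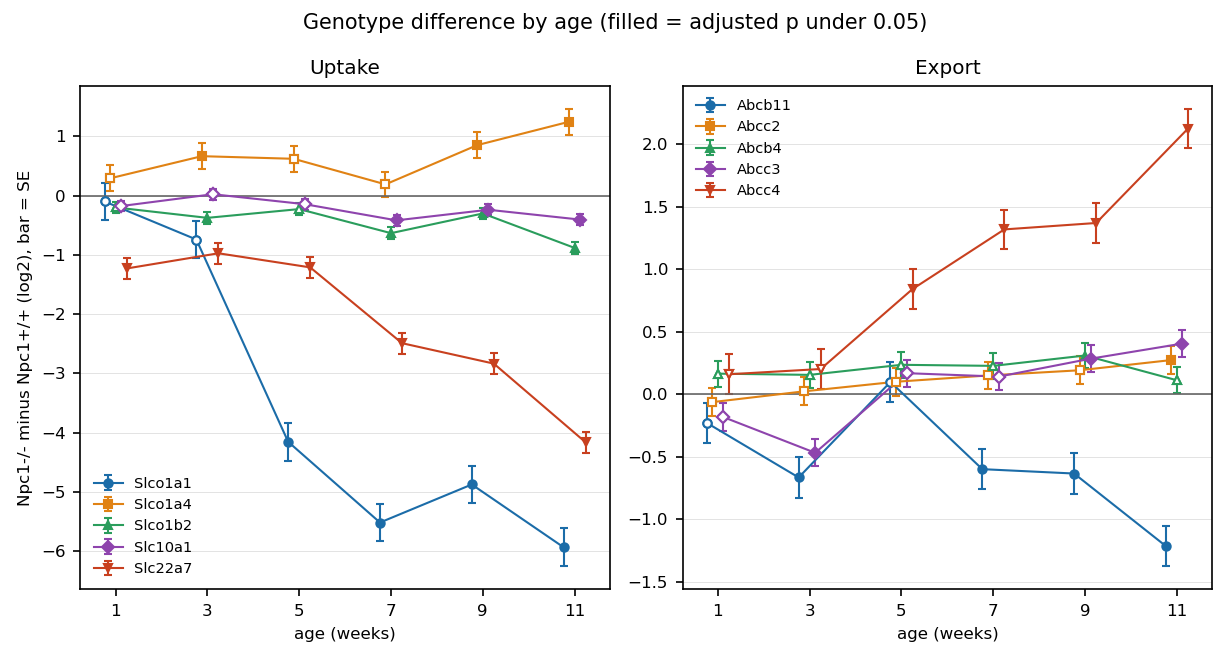
Difference between Npc1-/- and Npc1+/+ mice (log2, bar = SE) against age in weeks for the uptake genes (left) and the export genes (right), 4 mice per genotype and age, with filled symbols where the limma adjusted p was under 0.05. Slco1a1 and Slc22a7 reached -5.93 and -4.16 at 11 weeks, Slco1a4 reached 1.25 and Abcc4 2.12. The Npc1-/- means of Slco1a1 and Slc22a7 at 11 weeks lay below 5.54, so their sizes are not exact.

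In bulk liver, fewer hepatocytes and less transporter RNA per hepatocyte cannot be told apart. The levels of other cell types moved in the same mice. The marker counts at 11 weeks stand beside 18.8% of all genes called higher and 20.5% called lower at that age. The 8 macrophage markers averaged 7.24 in Npc1+/+ and 9.98 in Npc1-/- mice at 11 weeks, with 8 of 8 called higher. The 7 Kupffer cell markers averaged 7.55 and 6.20, with 6 of 7 called lower. The hepatocyte markers averaged 12.58 (12.54 to 12.63 over the 4 mice) and 12.48 (12.46 to 12.50), with 1 of 13 called higher and 5 lower and a median difference of -0.066. The endothelial markers averaged 8.22 and 7.91, with 1 of 7 higher and 5 lower, the erythroid markers 6.21 and 5.50, with 0 of 5 higher and 2 lower, and the stellate cell markers 7.94 and 8.17, with 3 of 7 higher and 1 lower. The 5 cholangiocyte markers averaged 5.15 to 5.56 in each of the 18 groups. These averages lay near or below 5.54, the level treated as background, and do not show whether bile duct cells changed. The erythroid mean of 5.50 in Npc1-/- mice also lay just below 5.54. At 7 weeks Slco1a1 was lower by at least 3.49, counted from 5.54, and Slc22a7 by 2.49. The hepatocyte mean at that age was 12.59 in Npc1+/+ and 12.56 in Npc1-/- mice. The part of the other cell types in the transporter differences was not tested.

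In Npc1+/+ liver most of these genes rose with age in the first weeks of life. From 1 to 3 weeks 7 of 10 rose and none was called lower (15.4% of all genes higher and 21.5% lower), with limma, and at an unadjusted p under 0.05 there were 9 higher and 0 lower. Slco1a4 rose by 2.23 ± 0.22, Abcc3 by 1.58 ± 0.11, Slco1b2 by 0.88 ± 0.099 and Abcb11 by 0.67 ± 0.16. Abcc2 (0.51 ± 0.11), Slc10a1 (0.44 ± 0.092) and Abcb4 (0.43 ± 0.10) also rose. The median over the 10 genes was 0.59, beside -0.027 over all genes. In the same mice the macrophage markers averaged 7.93 at 1 week and 7.17 at 3 weeks, with 7 of 8 called lower, the erythroid markers 7.54 and 6.50, with 3 of 5 lower and 1 higher, and 6 of 7 stellate cell markers were lower. The hepatocyte markers averaged 12.46 and 12.69, with 4 of 13 higher and 1 lower, and 6 of 8 pancreas markers were higher. Without the 3-week Npc1+/+ mice with pancreatic signal 7 of the 10 genes were again called. The part of the other cell types in the rise was not tested. From 3 to 5 weeks Slco1a1 rose, counted from 5.54, by at least 3.09, or at least 8.52-fold, Abcc3 rose by 0.59 ± 0.11, and Slc22a7 fell by 0.66 ± 0.18 (2 higher and 1 lower, against 2.82% and 3.73% of all genes, with medians of 0.014 over the members and -0.0031 over all genes). The Slc22a7 fall was not called without the mice with pancreatic signal (-0.58, limma adjusted p = 0.143), nor without 3-week mouse 1 or 5-week mouse 1 or 4 alone (-0.63 to -0.53, adjusted p up to 0.0725). From 5 to 11 weeks limma called 0 of 10 (0.19% of all genes), with 3 at an unadjusted p under 0.05, Slco1a1 (1.01 ± 0.32), Slco1b2 (0.24 ± 0.099) and Abcc3 (0.23 ± 0.11), and a median of 0.11 beside 0.032 over all genes.

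In the 12-week set, the Npc1 oligo lowered Slc22a7, Slco1b2 and Abcb11 and raised Abcb4. Slc22a7 was the member that moved most. With the control oligo the 5 mice had 9.96, 9.57, 9.62, 9.72 and 9.76, and with the Npc1 oligo 7.09, 7.78, 7.12, 6.85 and 7.13, which did not overlap. The difference was -2.53 ± 0.13 (limma adjusted p = 1.29e-14), a 5.78-fold lower level. Slco1b2 fell by 0.32 ± 0.086 (limma adjusted p = 0.00756), although the groups overlapped, and Abcb11 by 0.45 ± 0.097 (adjusted p = 0.000939). Abcb11 stood at 11.49, 11.68, 11.25, 11.48 and 11.29 with the Npc1 oligo and at 11.97, 11.75, 11.83, 11.88 and 12.02 with the control oligo, so that each treated mouse was below each control.

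Abcb4 rose under the Npc1 oligo, from 10.86, 10.46, 10.77, 10.71 and 10.82 to 11.36, 11.36, 11.38, 11.27 and 11.34, without overlap and by 0.62 ± 0.084 (limma adjusted p = 2.64e-06). Abcc4, which was 2.12 higher in 11-week Npc1-/- mice, differed by -0.22 ± 0.11 under the oligo and was not called (adjusted p = 0.145). Slco1a4 (0.27 ± 0.11), Slc10a1 (-0.12 ± 0.062), Abcc2 (0.12 ± 0.074) and Abcc3 (0.066 ± 0.079) were not called either. Of the 9 genes tested 1 was higher and 3 were lower (14.7% of all genes higher and 7.88% lower), or 2 and 5 after quantile normalization, and the median was -0.12 beside 0.015 over all genes. In the same groups the macrophage markers averaged 7.94 with the control and 9.01 with the Npc1 oligo, and the hepatocyte markers 12.67 and 12.66.

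In the presence of NAC the Npc1 oligo was called for 4 genes higher and 3 lower of 9 (11.0% and 14.7% of all genes), with a median of 0.084 beside -0.0076 over all genes. After quantile normalization 7 were called with NAC and 7 without it. Slc22a7 was 9.88, 9.78, 9.27, 9.14 and 9.42 with control oligo and NAC and 7.46, 7.76, 7.81, 7.78 and 7.87 with Npc1 oligo and NAC, a difference of -1.76 ± 0.13 (limma adjusted p = 5.77e-11). Abcb11 (-0.63 ± 0.097) and Slco1b2 (-0.32 ± 0.086) were lower, as without NAC. Abcb4 was higher by 0.76 ± 0.084, Slco1a4 by 0.51 ± 0.11, Abcc3 by 0.34 ± 0.079 and Abcc4 by 0.33 ± 0.11 (adjusted p = 5.15e-08, 0.000923, 0.00136 and 0.0216). Slco1a4 went from 10.83, 10.43, 10.17, 10.78 and 10.68 to 11.01, 11.21, 10.91, 11.19 and 11.12. The groups did not overlap for Slco1a4, Slc22a7, Abcb11, Abcc3 and Abcb4, and they did for Slco1b2 and Abcc4. Abcc4 was at 6.42, 6.87, 6.69, 6.59 and 6.66 with control oligo and NAC and at 7.03, 7.12, 6.82, 7.16 and 6.74 with Npc1 oligo and NAC. The Abcc4 call was lost without control mouse 1 or without Npc1 oligo mouse 2 or 4 of the NAC groups (0.27 to 0.29, adjusted p = 0.0594 to 0.0793). In the same groups the hepatocyte markers averaged 12.72 with the control and 12.52 with the Npc1 oligo, with 0 of 13 called higher and 7 lower, and the macrophage markers 8.06 and 9.01, with 5 of 7 called higher. Npc1 oligo mouse 3 of the NAC group stood apart in these lists, with a macrophage mean of 8.11 against 9.12 to 9.35 in the other mice of its group and a hepatocyte mean of 12.38. Without that mouse 7 genes were again called. The part of these markers in the differences was not tested.

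The interaction tested whether the oligo difference itself differed with NAC, and limma called it for 2 of 9 genes (4.83% of all genes), with a median of 0.14 beside -0.035 over all genes. For Slc22a7 the difference was smaller with NAC by 0.77 ± 0.19 (adjusted p = 0.0165, or 0.0575 in a fit of only the groups compared), and for Abcc4 it was shifted upward by 0.54 ± 0.15 (adjusted p = 0.0319). The Abcc4 interaction was lost in 10 of 31 alternative settings, with adjusted p between 0.0114 and 0.0946 over all of them. NAC alone was called for 1 of 9 genes with the Npc1 oligo, Slc22a7, higher by 0.54 ± 0.13 (limma adjusted p = 0.0102, or 0.0509 in a fit of only the groups compared, against 7.15% of all genes), although the groups overlapped, and the median over the 9 was -0.025 beside -0.0088 over all genes. With the control oligo limma called 0 of 9 for NAC (8.5% of all genes), with 3 at an unadjusted p under 0.05, all lower: Slc10a1 (-0.19 ± 0.062), Abcc2 (-0.16 ± 0.074) and Abcc4 (-0.24 ± 0.11). The median over the 9 was -0.17 beside 0.033 over all genes. In these groups NAC also went with lower Npc1, by 1.03 ± 0.15 with the control oligo, so the Npc1 difference between the oligos was smaller with NAC (-2.08 ± 0.15). Its part in the interaction was not tested.

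An overnight fast lowered Slc22a7, from 8.97, 9.35, 8.92, 9.27 and 9.03 to 8.38, 8.45, 8.45, 8.25 and 8.36, by 0.73 ± 0.13 (limma adjusted p = 0.00566). Abcc3 went from 10.58, 10.68, 10.46, 10.33 and 10.67 to 10.86, 10.94, 10.93, 11.10 and 10.73, higher by 0.37 ± 0.079 (adjusted p = 0.0175). Neither pair of groups overlapped, and the 2 of 9 genes called compare with 0.529% of all genes. The split was 1 higher and 1 lower, 2 and 1 with each array centred on its median, and 3 and 1 after quantile normalization. The median over the 9 was 0.11 beside -0.023 over all genes. Abcc4 (0.41 ± 0.11, adjusted p = 0.0723), Slco1a4 (0.33 ± 0.11, adjusted p = 0.272) and Abcb4 (0.30 ± 0.084, adjusted p = 0.12) were not called. The Abcc3 call was lost without untreated mouse 3 or 4 or fasted mouse 2 or 4 (0.31 to 0.36, adjusted p up to 0.107).

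Against untreated mice the control oligo went with higher Slc22a7 (0.62 ± 0.13, limma adjusted p = 0.00111) and lower Abcc4 (-0.38 ± 0.11, adjusted p = 0.00826), without overlap in either, which is 2 of 9 genes against 26.3% of all genes (2 higher and 1 lower after quantile normalization), no larger a share than over all genes. Of the macrophage markers 5 of 7 and of the Kupffer cell markers 5 of 7 were also higher with the control oligo. The median over the 9 was -0.029 beside -0.070 over all genes. Each Npc1 oligo mouse was nevertheless below each untreated mouse in Slc22a7, at 7.78 or less against 8.92 or more. The comparisons with untreated and with control oligo mice share animals, so their values stand side by side and are not independent.

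**Figure D4:**
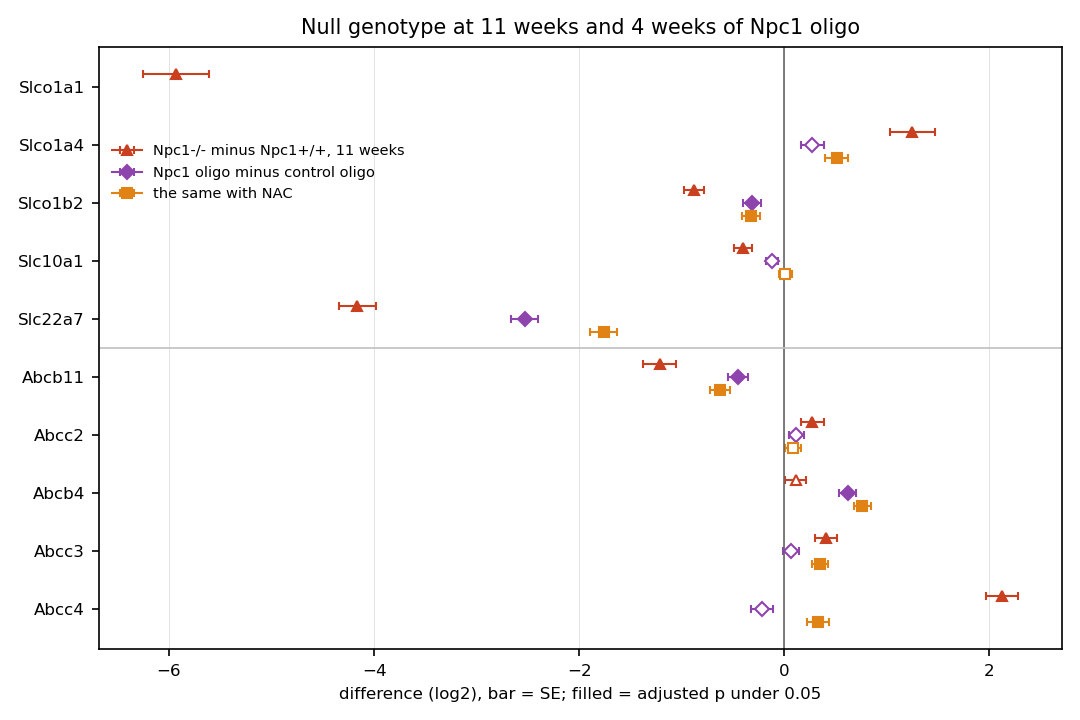
Log2 difference (x axis, bar = SE) for each gene (y axis) between genotypes at 11 weeks, 4 mice a group, and between Npc1 and control oligo without and with NAC, 5 mice a group, with filled symbols where the limma adjusted p was under 0.05. Slc22a7 was lower in all 3, at -4.16, -2.53 and -1.76, Abcc4 was at 2.12, -0.22 and 0.33, and Slco1a1 was not tested in the 12-week set.

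The genotype difference at 11 weeks and the oligo difference without NAC share no mice, and limma called a difference between them for 7 of the 9 genes that could be tested for the oligo (27.7% of all genes), 2 further up and 5 further down (3 and 4 after quantile normalization). The genotype difference was further down for Slc22a7 (-1.63 ± 0.23), Abcb11 (-0.76 ± 0.19), Slco1b2 (-0.56 ± 0.13), Abcb4 (-0.51 ± 0.13) and Slc10a1 (-0.28 ± 0.11). It was further up for Abcc4 (2.34 ± 0.20) and Slco1a4 (0.98 ± 0.26). The Slc10a1 call was lost in 16 of 28 alternative settings, among them quantile normalization (-0.11, adjusted p = 0.486) and leaving out Npc1+/+ mouse 1 (-0.20, adjusted p = 0.172) or any 1 of several other mice of all 4 groups. Slco1a1 was left out of these counts, since its levels below 5.54 in the 12-week set give no measure of the oligo. The median over the 9 genes was -0.28, beside -0.020 over all 12748 genes tested (-0.13 over all genes with each array centred on its median, under which counts of 2 and 5 were found). Duration of Npc1 loss, age at onset, mouse line and residual Npc1 differ together between the sets and cannot be told apart.

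Across the 18 groups each gene had its own order of levels. For Slc22a7 4 of 17 neighbouring pairs in the order were apart by more than their spread: 3-week Npc1+/+ mice (10.31) stood above all others. At the lower end, fasted mice (8.38) stood above the Npc1 oligo group with NAC (7.74), and Npc1-/- mice at 7 (6.84), 9 (6.27) and 11 weeks (5.40) were apart in turn. For Slco1a1 1 pair was apart, Npc1+/+ at 5 weeks (8.63) above Npc1-/- at 5 weeks (4.48), and 14 of 18 group means lay below 5.54. For Abcc4 the 11-week Npc1-/- group (8.38) was apart from the next, Npc1-/- at 9 weeks (7.91), and the rest down to 3-week Npc1+/+ mice (5.84) overlapped from neighbour to neighbour.

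Abcc3 had 4 pairs apart, of which 3 separated the youngest groups, from Npc1+/+ at 5 weeks (10.28) through Npc1+/+ (9.70) and Npc1-/- at 3 weeks (9.23) to Npc1+/+ at 1 week (8.11). Slco1a4 ran from 7.95 in 1-week Npc1+/+ to 11.38 in 11-week Npc1-/- mice, with both 1-week groups apart below the rest. Slco1b2 ran from 10.61 to 11.81, Abcb11 from 10.56 to 11.96 and Abcc2 from 10.42 to 11.41, each with 1 pair apart. For Slc10a1 (11.54 to 12.40) and Abcb4 (10.29 to 11.34) no neighbours in the order were apart. Abcc4 of untreated 12-week mice (7.27 ± 0.17) was above that of 11-week Npc1+/+ mice (6.26 ± 0.26), a comparison between sets with no shared group.

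The genes whose 18 group means followed Slco1a1 most closely, among 12748, were Sult3a1 (Pearson r = 0.977), Gm21286 (0.972) and Gba2 (0.949). For Slc22a7 they were Tlcd2 (0.980), Cmah (0.943) and Lect2 (0.914), and for Slco1a4 Sult1a1 (0.951), Tmem106b (0.943) and Lpin2 (0.941). Sult3a1 and Sult1a1 encode sulfotransferases, enzymes that conjugate drugs and steroids, and Gba2 the non-lysosomal glucosylceramidase. Among the members themselves, Slco1b2 and Slc10a1 had r = 0.913 over the 18 group means, Slco1a4 and Abcc2 0.901, Abcc2 and Abcc3 0.901, and Slc22a7 and Abcc4 -0.823. These are descriptions over group means that share ages, sets and arrays. Slco1a1 lay below 5.54 in 14 of the 18 groups, so its r values mainly set Npc1+/+ mice from 5 weeks on against all other groups.

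The other genes of the pathway were taken from lists chosen with results of these data known. At 11 weeks 10 of 15 bile acid synthesis genes were called lower and 1 higher (20.5% and 18.8% of all genes), with a median of -0.45. Cyp7b1, of the alternative synthesis pathway, fell by 2.64 ± 0.18, Cyp8b1, the 12α-hydroxylase, fell by 1.50 ± 0.31, and Cyp39a1, an oxysterol hydroxylase, rose by 1.70 ± 0.21. At 1 week 4 of 15 were lower and 1 higher (2.78% and 2.91% of all genes), the latter Baat, which conjugates bile acids (1.17 ± 0.12). Under the Npc1 oligo without NAC 7 were lower and 3 higher (7.88% and 14.7% of all genes), and Cyp7b1 (-1.05 ± 0.17) and Cyp39a1 (0.92 ± 0.13) were among them. With NAC the 3 largest called differences were Cyp2c70 (-1.24 ± 0.094), Cyp8b1 (1.00 ± 0.14) and Cyp7b1 (-0.99 ± 0.17). Cyp8b1 thus went the other way from the genotype difference at 11 weeks.

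Of 20 other transporter genes tested at 11 weeks 11 were lower and 3 higher (20.5% and 18.8% of all genes). Slc22a26 (-2.73 ± 0.24) and Slc22a30 (-2.42 ± 0.15), organic anion transporters of the family of Slc22a7, fell, and so did Slc10a2 (-2.15 ± 0.28), the ileal and cholangiocyte bile acid carrier. Slc22a30 and Slc22a26 were already lower at 1 week, by -1.59 ± 0.15 and -1.38 ± 0.24, and were lower under the Npc1 oligo, by -1.19 ± 0.15 and -1.16 ± 0.17. At an unadjusted limma p under 0.05, 1 of 20 was higher and 6 were lower at 1 week (2252 of all 12638 genes in either direction). Under the oligo without NAC 3 of 18 were higher and 10 lower by the same measure (4139 of all 11900 genes). Abcg8, of the sterol exporter of the canalicular membrane, was lower under the oligo (-0.80 ± 0.084). With NAC the Npc1 oligo went with lower Slc22a30 (-1.33 ± 0.15) and Slc22a26 (-0.86 ± 0.17) and with higher Slc22a5 (0.81 ± 0.12).

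Among 24 regulators 12 were called lower at 11 weeks (20.5% of all genes) and 0 higher (18.8%), also 0 at an unadjusted limma p under 0.05. Nr0b2 fell by 1.18 ± 0.35 (adjusted p = 0.0053), Hnf4a, a regulator of many hepatocyte genes, by 0.29 ± 0.10 (adjusted p = 0.0207), and Ghr, the growth hormone receptor, by 1.54 ± 0.11. The FXR gene Nr1h4 was -0.35 ± 0.14 at 11 weeks (adjusted p = 0.051), Nr1i2 -0.24 ± 0.16, Nr1i3 -0.33 ± 0.21 and Nfe2l2 0.20 ± 0.12, none of them called at that age. Called values at younger ages included Nr1i3 at 1 week (-0.75 ± 0.21) and Hnf4a at 3 weeks (-0.45 ± 0.10). They also included Nfe2l2 at 7 weeks (0.63 ± 0.12) and Nr0b2 at 9 weeks (-0.88 ± 0.35). Over the mean of 6 ages Nr1h4 (-0.21 ± 0.059), Nr0b2 (-0.69 ± 0.14), Nr1i2 (-0.22 ± 0.064), Nr1i3 (-0.37 ± 0.086) and Hnf4a (-0.30 ± 0.042) fell and Nfe2l2 rose (0.37 ± 0.047). Under the Npc1 oligo without NAC, Hnf4a rose by 0.37 ± 0.070 and Nfe2l2 by 0.43 ± 0.11, Nr1i3 fell by 0.39 ± 0.12, and Nr1h4 (0.16 ± 0.085), Nr0b2 (-0.21 ± 0.21) and Nr1i2 (-0.072 ± 0.072) were not called. With NAC the Npc1 oligo went with lower Nr0b2 (-1.31 ± 0.21, limma adjusted p = 1.57e-05) and with higher Nr1i3 (0.48 ± 0.12, adjusted p = 0.00263) and Nfe2l2 (0.43 ± 0.11), and Hnf4a was not called (0.075 ± 0.070, adjusted p = 0.479).

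Of 12 xenobiotic and oxidative stress target genes 5 were higher at 11 weeks (18.8% of all genes), among them Srxn1 (1.75 ± 0.17), Hmox1 (1.69 ± 0.12) and Nqo1 (1.58 ± 0.17), enzymes known as NRF2 targets. At 5 weeks 6 of 12 were higher, with Srxn1 at 0.77 ± 0.17 and Hmox1 at 0.77 ± 0.12 (9.69% of all genes higher). At 3 weeks 1 was higher, Hmox1 (0.64 ± 0.12, limma adjusted p = 0.000189), and 3 were lower (8.9% and 6.84% of all genes). Cyp2b10, a known CAR target, was among the lower genes at 3 weeks (-1.95 ± 0.47) and 7 weeks (-1.99 ± 0.47). Under the Npc1 oligo 3 were higher and 4 lower (14.7% and 7.88% of all genes), with Hmox1 at 0.63 ± 0.17 and Cyp2b10 at -0.87 ± 0.14.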

How the data were processed

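The values used were log2 expression levels per probe set as deposited by the authors, from 1 array per mouse. The submitters' processing notes name RMA and Partek 6.5; how arrays were scaled to each other is not given in the sources used here. Of 35556 probe sets, 21789 carried 1 gene symbol in the platform table, 1621 several and 12146 none, and each of 19938 genes was read from its brightest probe set. Array medians lay between 5.35 and 5.65. Precision is limited by having 4 or 5 mice in a group.

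Genes that exceeded 5.54 (the median of all values) on 4 or more arrays were tested with limma 3.58.1 in R 4.3.3, with no replicate block: 12638 genes in the 48 arrays of the age series, 11900 in the 30 of the 12-week set and 12748 in all 78 arrays for the comparison between sets. P-values were adjusted by Benjamini-Hochberg over all genes tested. The fit was first tested on simulated data. The 10 members and all gene lists were chosen with earlier results of these data known. All members were described. From each pathway list the text names up to 3 genes with the largest called difference per comparison, and Nr1h4, Nr0b2, Nr1i2, Nr1i3, Hnf4a and Nfe2l2 for each genotype comparison; their values under the oligo were added after they had been seen. Pathway genes found on the array were 27 of 30 other transporters, 25 of 26 regulators, 15 of 15 bile acid synthesis genes and 12 of 14 xenobiotic targets.

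The alternatives were no filter or a stricter one (the 60th percentile, 6.18), quantile normalization, centring on array medians, averaging each gene's probe sets, a trended robust prior, array weights, only the groups compared, all 78 arrays, a replicate block, an adjusted p under 0.01 and leaving out single or atypical arrays. The labels share replicate numbers between groups, but same-numbered mice did not deviate together (r from -0.24 to 0.28, above 0.1 in 8 of 39 pairs).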

Additional observations from a re-analysis of the deposited data

Results flagged for a closer look

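In 10 of 180 gene and group combinations 1 mouse lay far from the rest by Dixon's criterion, where 1 in 20, or 9, would be flagged by chance. The ratio given is the gap to the nearest mouse over the range of the group. For Slco1a1 these were Npc1+/+ mouse 1 at 5 weeks (7.45, nearest 8.85, ratio 0.838), Npc1-/- mouse 1 at 9 weeks (4.74, nearest 3.60, ratio 0.867), fasted mouse 5 (3.35, nearest 3.73, ratio 0.761) and control oligo mouse 5 (4.97, nearest 4.01, ratio 0.806). The last 3 lay below 5.54. For Slc22a7 they were Npc1+/+ mouse 3 at 9 weeks (8.51, nearest 9.23, ratio 0.873) and mouse 1 with Npc1 oligo and NAC (7.46, nearest 7.76, ratio 0.742). For Slco1b2 it was Npc1+/+ mouse 1 at 9 weeks (11.52, nearest 11.74, ratio 0.849). For Abcc3 they were Npc1-/- mouse 3 at 5 weeks (10.15, nearest 10.51, ratio 0.845) and Npc1+/+ mouse 2 at 9 weeks (10.63, nearest 10.54, ratio 0.850). For Abcc4 it was Npc1+/+ mouse 2 at 5 weeks (6.10, nearest 6.24, ratio 0.848).

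The oligo difference itself differed with NAC for Slc22a7 (0.77) and Abcc4 (0.54), by the interaction in limma. The genotype difference at 11 weeks differed from the oligo difference without NAC for Slco1a1 (-5.60), Slco1a4 (0.98), Slco1b2 (-0.56), Slc10a1 (-0.28), Slc22a7 (-1.63), Abcb11 (-0.76), Abcc4 (2.34) and Abcb4 (-0.51). The value for Slco1a1 is no measure of the oligo, since its levels in the 12-week set lay below 5.54. The genotype difference varied between ages for 7 genes, with a spread between its highest and lowest age of 5.84 for Slco1a1, 3.19 for Slc22a7, 1.96 for Abcc4, 1.31 for Abcb11, 0.87 for Abcc3, 0.68 for Slco1b2 and 0.44 for Slc10a1. The Slco1a1 spread rests on levels below 5.54 and is not an exact size.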

How the results depend on the processing

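Of 85 calls on the members, 67 held under every alternative run, 18 were lost under at least 1 and 0 changed direction, and 26 differences that were not called were called under at least 1. An adjusted p under 0.01 lost 15 calls, fitting only the groups compared 6, no filter 5, leaving out the Npc1+/+ mice 1 and 2 at 3 weeks 5, centring 4, quantile normalization 3, all 78 arrays 3 and array weights 2. Counts moved by more than 1.5 times only as follows, and the cause was not tested. The 3-week genotype count went from 5 to 2 without those 2 mice, the 5-week count from 3 to 5 after quantile normalization and with array weights, the 9-week count from 9 to 5 at an adjusted p under 0.01, and the oligo count without NAC from 4 to 7 after quantile normalization. For NAC with the control oligo the count of 0 became 1 under the stricter filter, quantile normalization, the trended robust prior and array weights. For NAC with the Npc1 oligo the count of 1 became 0 at an adjusted p under 0.01 and with only the groups compared. The interaction count of 2 became 1 with array weights, only the groups compared and all 78 arrays, and 0 at an adjusted p under 0.01. The fasting count of 2 became 4 after quantile normalization, 5 with array weights and 1 at an adjusted p under 0.01 and with all 78 arrays. Leaving out single mice gave 3 to 5 calls at 5 weeks, 0 to 1 for NAC with the control oligo, 1 to 2 for NAC with the Npc1 oligo, 1 to 2 for the interaction and 1 to 3 for fasting. With the replicate number as a block, 4 genes were called at 5 weeks (3 without) and 8 between 1 and 3 weeks in Npc1+/+ mice (7 without), and all other counts were equal, although among the 7 genes varying with age Slco1a4 (adjusted p = 0.0405) replaced Slc10a1 (adjusted p = 0.0597). Slco1a1 lay below 5.54 in 14 of 18 groups, so its low levels have no order.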
